A study of Homo sapiens with 6 samples.

Results

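Adenylyl cyclases make the second messenger cAMP, cyclic nucleotide phosphodiesterases (PDEs) break down cAMP and cGMP, and protein kinase A (PKA), EPAC and the CREB-family factors read the cAMP signal. The genes of these families were examined in TC28a2 cells, an immortalized human chondrocyte line, after treatment with mocetinostat, a class I selective inhibitor of histone deacetylases. Members were taken by gene name alone: every numbered *ADCY* gene, every *PDE* gene with a number and a letter from A to D, and *PRKACA*, *PRKACB*, *PRKAR1A*, *PRKAR1B*, *PRKAR2A*, *PRKAR2B*, *PKIA*, *RAPGEF3*, *RAPGEF4*, *CREB1*, *CREB5* and *CREM*. This rule found 45 of the 60623 genes in the table, with 44 symbols, because *PDE11A* stood under a pair of identifiers, 1 of which had no count in any sample.

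RNA-Seq was performed on 3 samples treated with 2 μM mocetinostat and on 3 samples given the vehicle DMSO, all collected after 24 hours. The study describes them as independent experiments, all on 1 cell line, so the differences below belong to TC28a2 cells. DMSO libraries held 4873426 to 11031132 counts and mocetinostat libraries 1619344 to 5089542, so the treated side carried fewer reads and wider counting error for the low members. Levels are given as CPM, the counts of a gene relative to the library total after scaling with TMM factors. Chondrocyte markers were low with DMSO. *COL2A1* lay between 1.45 and 2.79 CPM and *CHAD* had 1 count in 1 of the 3 DMSO samples, whereas *SOX9* lay between 95 and 121 CPM and *COL1A1*, a fibroblast collagen, lay between 3970 and 4850 CPM. The other fibroblast markers were mixed with DMSO. *COL3A1* (501 to 572 CPM), *THY1* (155 to 177) and *PDGFRB* (101 to 109) were well counted, and *COL1A2* (1.91 to 3.51), *PDGFRA* (0.733 to 1.08) and *DCN* (0.621 to 0.81) were low.

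cAMP is made when a hormone receptor activates the stimulatory G protein Gs, which switches on the membrane-bound cyclases. cAMP then binds the regulatory subunits of PKA and frees the catalytic subunits, which phosphorylate CREB in the nucleus, while EPAC proteins use cAMP to activate the small GTPase RAP1. In cartilage, the receptor for parathyroid hormone-related protein signals through cAMP and PKA and holds back chondrocyte hypertrophy, and C-type natriuretic peptide promotes growth of the growth plate through cGMP.

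Of the 45 members, 31 passed the filter on low counts and were tested. Genes with an adjusted p under 0.05 in edgeR's quasi-likelihood test and a log2 fold change over 1 or under -1 are called upregulated genes (URGs) or downregulated genes (DRGs). There were 12 URGs and 0 DRGs among the members. DESeq2 also gave 0 DRGs, and 5 members were lower at an unadjusted p under 0.05 in edgeR. Across all 13966 genes tested, 20.2% were URGs and 8.18% were DRGs (28.4% in either direction). Without the fold limit, 21 members had an adjusted p under 0.05, 16 of them higher and 5 lower with mocetinostat, against 32.9% of all genes tested higher and 31.4% lower. CPM values did not overlap between the groups for 24 members, 18 higher and 6 lower with mocetinostat, against 33.5% of all genes tested higher, 33.2% lower and 66.7% in all. The median log2 fold change of the tested members was 0.49 and ranged from -0.84 to 4.15, beside a median of 0.00 over all genes tested. With each library scaled to its *GAPDH* count instead, all genes moved up by a median of 0.54 on the log2 scale, the counts over all genes turned from 2827 URGs and 1142 DRGs to 4425 and 284, and the members had 16 URGs and 0 DRGs.

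All members together took 0.110% to 0.113% of the counts in the DMSO samples and 0.130% in each mocetinostat sample. A gene was kept if at least 3 samples reached 2.01 CPM, and 8 of the 12 member URGs (*ADCY5*, *PDE1B*, *PDE2A*, *PDE3A*, *PDE9A*, *PKIA*, *RAPGEF3* and *RAPGEF4*) reached that level in every mocetinostat sample but not in every DMSO sample. Of all 1559 genes kept in this way, 90.1% were URGs, so that the counts of these members follow in part from the filter. Among the other 23 tested members, which reached the level in every DMSO sample, 4 were URGs (*ADCY1*, *PDE3B*, *PDE4D* and *PRKAR2B*), or 17.4%, beside 11.7% of the 12047 genes of that kind. In RNA from whole cultures, a change in a few cells cannot be told apart from a change in every cell.

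**Figure D1:**
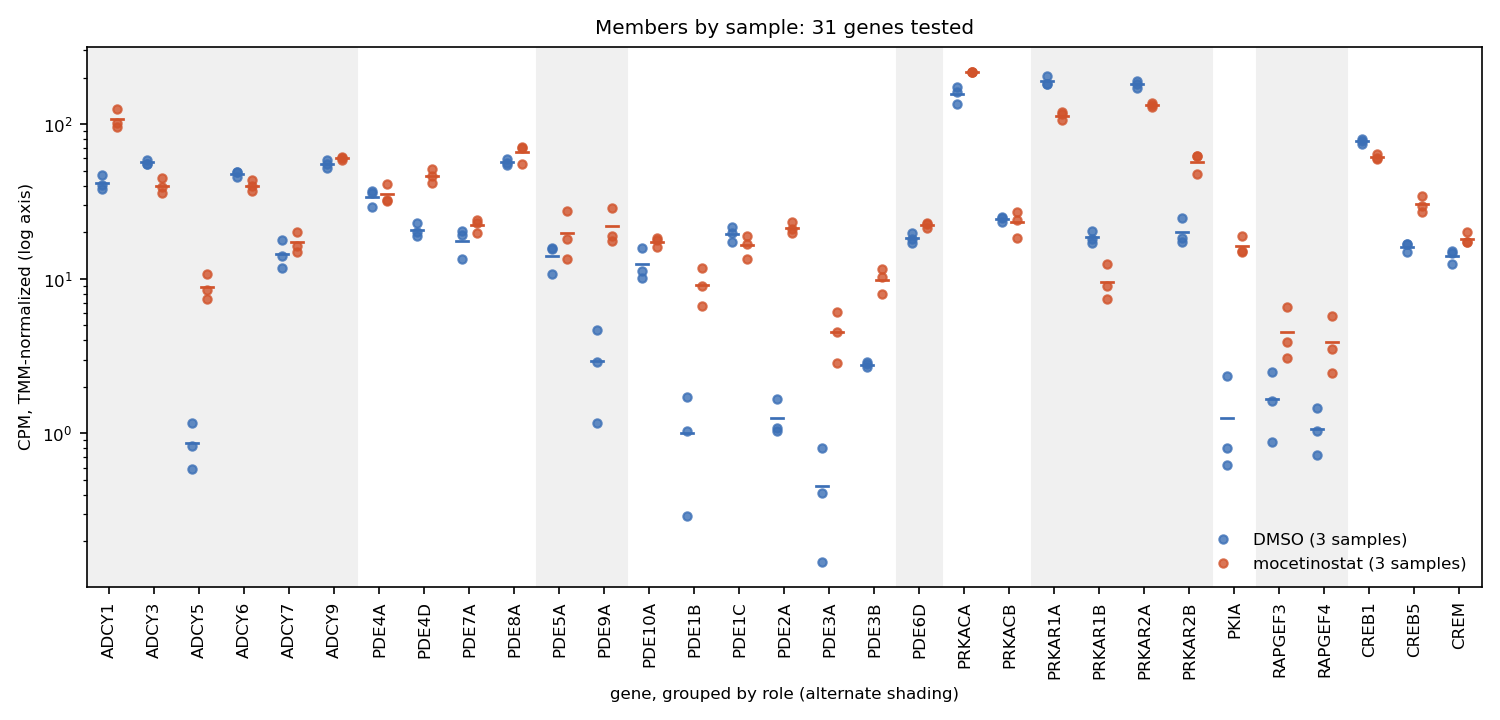
Level of each of the 31 tested members in each sample, in TMM-normalized CPM on a log axis, with genes grouped by role and a short line at the mean of 3 samples. The mocetinostat points of *ADCY5*, *PDE2A* and *PKIA* lie well above the DMSO points, while those of *PRKAR1A*, *PRKAR1B* and *PRKAR2A* lie below them.

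Among the adenylyl cyclases, *ADCY1* and *ADCY5* rose, and *ADCY3* was lower below the fold limit. *ADCY1* encodes a cyclase stimulated by calcium and calmodulin and lies at chr7:45574140-45723116 (GRCh38). Its levels were 38.3, 40.2 and 47.2 CPM in the DMSO samples and 102, 126 and 96.3 CPM in the mocetinostat samples. The groups did not overlap, and the lowest treated sample was above the highest control. With a log2 fold change of 1.36 and a standard error (SE) of 0.12, its adjusted p was 4.64e-16 in edgeR's test.

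*ADCY5* encodes a cyclase that calcium and the inhibitory G protein Gi restrain, best known from striatum and heart, and lies at chr3:123282296-123449090. It had 13, 4 and 4 counts in the controls against 43, 12 and 26 in the shallower mocetinostat libraries. Scaled, these were 0.587 to 1.17 CPM against 7.36 to 10.7 CPM, with no overlap. The log2 fold change was 3.27 (SE 0.46), with an adjusted p of 3.45e-09 by edgeR.

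*ADCY3*, the cyclase of olfactory cilia, was read at 55.4, 58.8 and 55.4 CPM with DMSO and at 36.1, 44.8 and 39.3 CPM with mocetinostat. All 3 treated samples were below all 3 controls, and the log2 fold change was -0.52 (SE 0.14), with an adjusted p of 0.000635 by edgeR. Under *GAPDH* scaling it was 0.02, so its direction depended on the scaling. *CENPO*, on the other strand, overlaps 23.0% of the *ADCY3* exons, and the sources used here do not give the strand setting of the counting. *ADCY6*, *ADCY7* and *ADCY9* did not pass the test, with log2 fold changes of -0.24, 0.19 and 0.14. *BRD7* overlaps 41.8% of the *ADCY7* exons in the same manner.

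Per length, the balance among the cyclases moved toward *ADCY1*. Counts were divided by the length of the merged exons of each gene, and each cyclase was taken as a percent of the summed level of all cyclases in the same sample, which does not depend on scaling between libraries. *ADCY1* made up 11.7%, 11.7% and 13.2% of this sum in the DMSO samples and 27.5%, 30.2% and 25.1% in the mocetinostat samples. *ADCY3*, the leading cyclase with DMSO, went from 35.7% ± 1.80 (SD, n = 3) to 22.1% ± 1.09, and *ADCY6* from 23.0% ± 0.29 to 16.98% ± 2.14. *ADCY9* moved little, from 21.1% ± 0.40 to 20.3% ± 1.01. The summed cyclase level was 23.5 to 25.5 CPM per kilobase with DMSO and 26.6 to 29.9 with mocetinostat, a ratio of 1.14 that became 1.64 under *GAPDH* scaling.

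Of 21 symbols that encode catalytic phosphodiesterases, 12 were tested and 6 were URGs (*PDE1B*, *PDE2A*, *PDE3A*, *PDE3B*, *PDE4D* and *PDE9A*). Over all genes tested, 20.2% were URGs. Of the 6, *PDE1B*, *PDE2A*, *PDE3A* and *PDE9A* passed the filter only through the mocetinostat samples, where 90.1% of all such genes were called. The 8 PDEs that reached the filter level in every DMSO sample held 2 URGs, *PDE3B* and *PDE4D*, beside 11.7% of all genes of that kind.

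*PDE2A* had the highest log2 fold change of the members tested. It encodes the PDE that cGMP stimulates through its GAF domain, so that cGMP speeds the breakdown of cAMP, and lies at chr11:72576141-72674591 on the minus strand. Counts were 12, 8 and 7 in the controls against 119, 34 and 48 after treatment, or 1.08, 1.66 and 1.03 CPM against 23.3, 20.9 and 19.7 CPM. Every treated sample was more than 10 CPM above every control. The log2 fold change was 4.15 (SE 0.33), with an adjusted p of 1.24e-18 by edgeR. With all libraries thinned to the size of the smallest, it was 5.59.

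The PDE3 enzymes, which cGMP inhibits, and PDE1B, which calcium and calmodulin stimulate, also rose. *PDE3A* had 9, 2 and 1 counts in the controls against 23, 10 and 7 after treatment, a log2 fold change of 3.05 (SE 0.59). It was at or below 0.810 CPM in the controls and at or above 2.87 CPM in the treated samples. *PDE3B* was read at 2.88, 2.69 and 2.79 CPM with DMSO and at 10.2, 7.98 and 11.5 CPM with mocetinostat, a log2 fold change of 1.84 (SE 0.35). *PDE1B* had 19, 5 and 2 counts in the controls against 34, 19 and 22 after treatment, a log2 fold change of 2.97 (SE 0.47). None of these 3 genes overlapped between groups, and their adjusted p values by edgeR were 6.20e-06, 3.94e-06 and 6.65e-08. The DMSO samples of *PDE1B* and *PDE3A* differed among themselves, and without DMSO replicate 1 the log2 fold changes were 3.76 and 3.92.

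*PDE1C*, the other calmodulin-dependent PDE tested, did not pass, with 21.5, 19.9 and 17.2 CPM against 16.9, 19.0 and 13.5 CPM and overlapping groups. *PDE10A*, a dual-substrate PDE of the striatum, was higher below the fold limit, at a log2 fold change of 0.53 (SE 0.22) and an adjusted p of 0.0306 by edgeR. That p was over 0.05 in DESeq2 (0.206), with no filter (0.432) and when DMSO replicate 1 or 3 or mocetinostat replicate 1 or 3 was left out (0.0822 to 0.145). *PDE10A* was a URG under *GAPDH* scaling (1.07).

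Of the cGMP-specific PDEs, *PDE9A*, whose enzyme has a high affinity for cGMP, rose. It was read at 1.17, 2.90 and 4.69 CPM with DMSO and at 19.0, 28.8 and 17.6 CPM with mocetinostat. The groups were far apart, although the controls spread more than for most members. The log2 fold change was 2.96 (SE 0.31), with an adjusted p of 3.72e-13 by edgeR, and it was 3.54 without DMSO replicate 3. *PDE5A*, the target of sildenafil, was read at 15.6, 10.8 and 15.7 CPM against 18.0, 13.5 and 27.5 CPM. Its groups overlapped, and its log2 fold change of 0.49 (SE 0.22) had an adjusted p of 0.0424 by edgeR. The highest treated value was that of mocetinostat replicate 3, and without this sample the log2 fold change of *PDE5A* was 0.206, with an adjusted p of 0.479. The adjusted p was also over 0.05 without DMSO replicate 2 (0.231) or mocetinostat replicate 1 (0.0561), in DESeq2 (0.239), with no filter (0.446), with a replicate block (0.0567) and after thinning (0.254). *PDE5A* was a URG under *GAPDH* scaling (1.03).

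Of the cAMP-specific PDEs, *PDE4D*, of the rolipram-sensitive PDE4 family, rose. Levels were 23.1, 18.8 and 20.1 CPM with DMSO and 46.1, 51.5 and 41.8 CPM with mocetinostat, with no overlap. This was a log2 fold change of 1.15 (SE 0.16), with an adjusted p of 1.83e-09 by edgeR. With no filter on low counts, which moves the centre of all genes, it was 0.90, below the fold limit. *PDE4A*, *PDE7A* and *PDE8A* did not pass the test, with log2 fold changes between 0.10 and 0.31. *PDE6D*, which encodes a prenyl-binding chaperone and no phosphodiesterase activity of its own, had 0.29 and did not pass either.

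**Figure D2:**
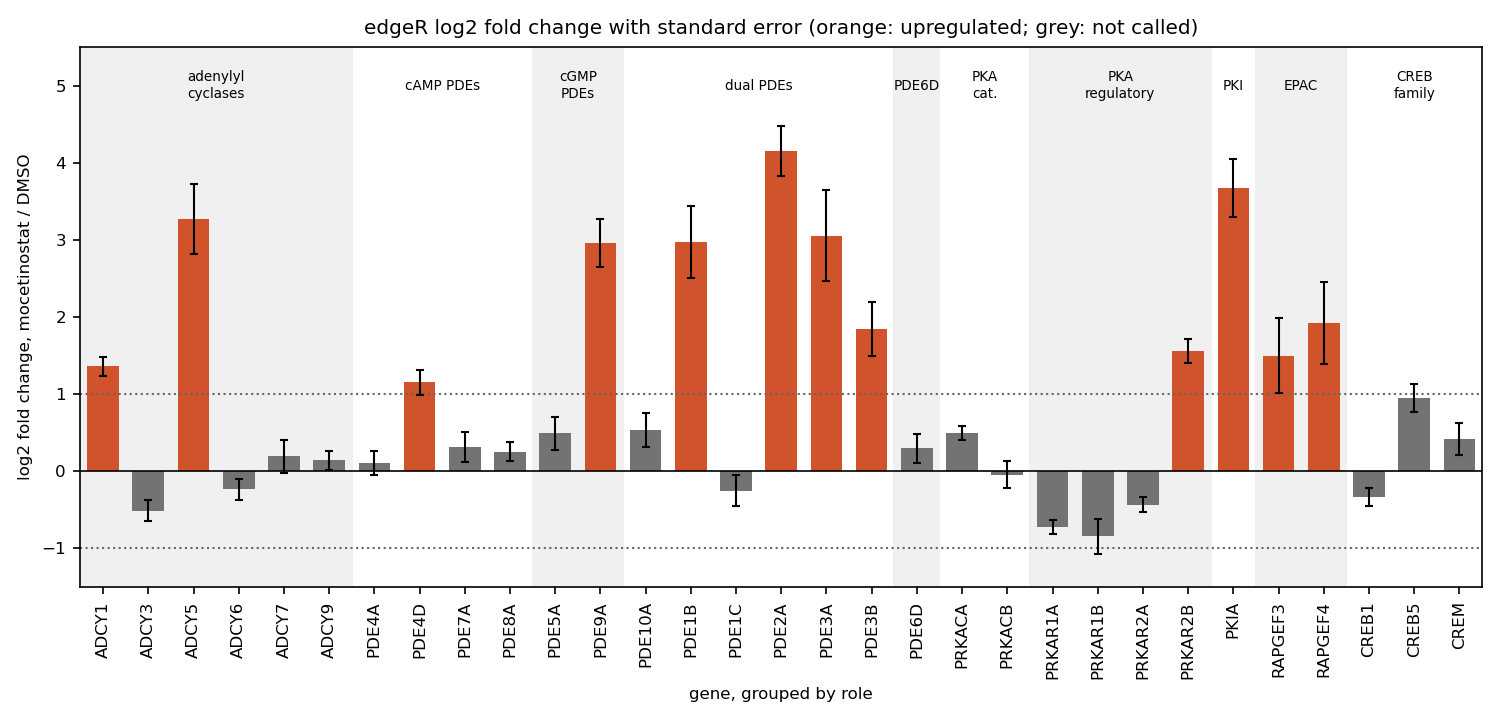
Log2 fold change of each tested member, mocetinostat against DMSO, with bars for the edgeR estimate and error lines for its standard error (3 samples per condition), and dotted lines at 1 and -1. Orange bars are the 12 URGs, from 1.15 for *PDE4D* to 4.15 for *PDE2A*, and no bar passes -1.

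Per length, the summed level of the catalytic PDEs was 19.2 to 20.5 CPM per kilobase with DMSO and 32.3 to 33.7 with mocetinostat, a ratio of 1.68 (2.42 under *GAPDH* scaling). The dual-substrate PDEs went from a mean of 2.35 to 7.29 CPM per kilobase and the cGMP-specific PDEs from 2.09 to 6.55, ratios of 3.10 and 3.14. The cAMP-specific PDEs, the most abundant of the 3 classes in both conditions, went from 15.3 to 19.2, a ratio of 1.26. Within the sum, *PDE9A* went from 2.77% ± 1.59 (SD, n = 3) to 12.5% ± 3.49 and *PDE2A* from 0.89% ± 0.26 to 8.97% ± 0.59. *PDE8A* remained the leading PDE per length but went from 35.8% ± 0.28 to 24.9% ± 3.45, and *PDE4A*, which followed it, from 25.5% ± 2.79 to 15.7% ± 1.89.

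**Figure D3:**
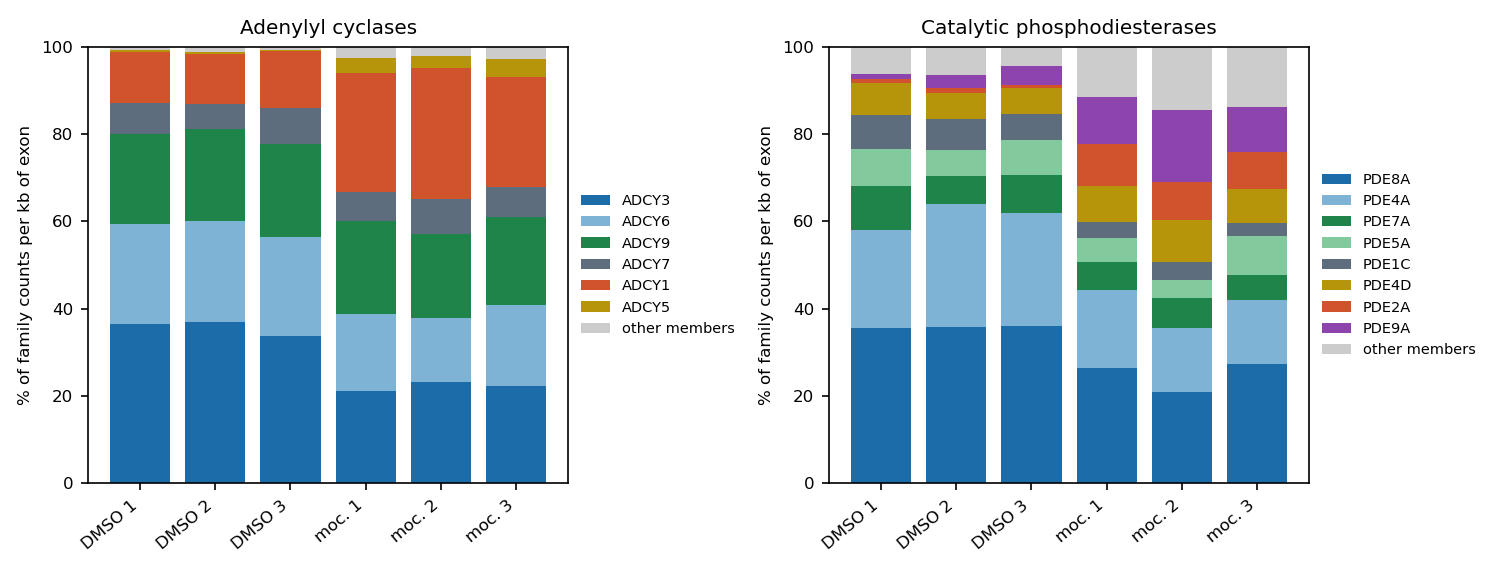
Share of the adenylyl cyclases (left) and of the catalytic phosphodiesterases (right), with the lesser members as 1 grey block, in the summed counts per kilobase of merged exon of its family, in percent, for each of the 6 samples. *ADCY1* takes 25.1% to 30.2% of the cyclase sum with mocetinostat and at most 13.2% with DMSO, and *PDE2A* and *PDE9A* widen in every treated sample.

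PKA is a tetramer of regulatory and catalytic subunits, and the regulatory genes moved in opposite directions. *PRKAR2B*, which encodes the type II beta regulatory subunit of brain and fat and lies at chr7:107044705-107161811, rose. Its levels were 18.3, 24.9 and 17.4 CPM with DMSO and 61.8, 47.9 and 61.9 CPM with mocetinostat, and every treated sample was above every control. In edgeR's test the log2 fold change was 1.56 (SE 0.15), with an adjusted p of 2.33e-14.

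The other 3 regulatory genes were lower in all 3 treated samples than in all 3 controls, below the fold limit. The same lack of overlap, lower with mocetinostat, was found for 33.2% of all genes tested. *PRKAR1A*, the type I alpha subunit and the gene of Carney complex, was read at 206, 181 and 183 CPM with DMSO and at 116, 106 and 120 CPM with mocetinostat. Its log2 fold change was -0.73 (SE 0.10), with an adjusted p of 4.71e-10 by edgeR. *PRKAR2A* was read at 172, 183 and 190 CPM against 133, 138 and 130 CPM, a log2 fold change of -0.44 (SE 0.09). *PRKAR1B* was read at 17.1, 18.2 and 20.4 CPM against 12.4, 7.36 and 9.01 CPM, a log2 fold change of -0.84 (SE 0.23) that was -1.15, past the fold limit, without mocetinostat replicate 1. Their adjusted p values by edgeR were 3.25e-05 for *PRKAR2A* and 0.000863 for *PRKAR1B*. Under *GAPDH* scaling none of the 3 passed the test. The log2 fold changes were then -0.19 for *PRKAR1A*, -0.30 for *PRKAR1B* and 0.09 for *PRKAR2A*, with adjusted p values by edgeR of 0.101, 0.254 and 0.422.

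*PRKACA*, the main catalytic subunit gene, was read at 136, 173 and 162 CPM with DMSO and at 219, 217 and 218 CPM with mocetinostat. The 3 treated samples were nearly equal and all above the controls, with a log2 fold change of 0.49 (SE 0.09) and an adjusted p of 2.78e-06 by edgeR. *PRKACA* was a URG under *GAPDH* scaling (1.02). *PRKACB* overlapped between groups at 24.9, 23.4 and 25.1 CPM against 27.1, 23.9 and 18.4 CPM.

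Per length, the regulatory genes summed to 41.1 to 41.8 CPM per kilobase with DMSO and 29.6 to 31.9 with mocetinostat, and the catalytic genes to 22.1 to 27.0 and 32.4 to 33.9. These sums depend on the scaling between libraries. The ratio of regulatory to catalytic transcripts within a sample, which scaling does not touch, was 1.86, 1.52 and 1.63 with DMSO and 0.941, 0.894 and 0.960 with mocetinostat. The mean ratio was thus 1.66 ± 0.17 (SD, n = 3) with DMSO and 0.932 ± 0.036 with mocetinostat, and the groups did not overlap. With 3 samples against 3, an exact two-sided permutation test cannot give a p below 0.1, so no test is given for the ratio. Within the regulatory genes, *PRKAR2B* went from 3.89% ± 0.81 to 14.7% ± 1.57 and *PRKAR1A* from 36.5% ± 2.90 to 29.3% ± 1.11, while *PRKAR2A* was near 50% in both, at 50.6% ± 2.07 and 49.9% ± 3.33. With the longest transcript as length, the gain of *PRKAR2B* was 17.7 percentage points.

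**Figure D4:**
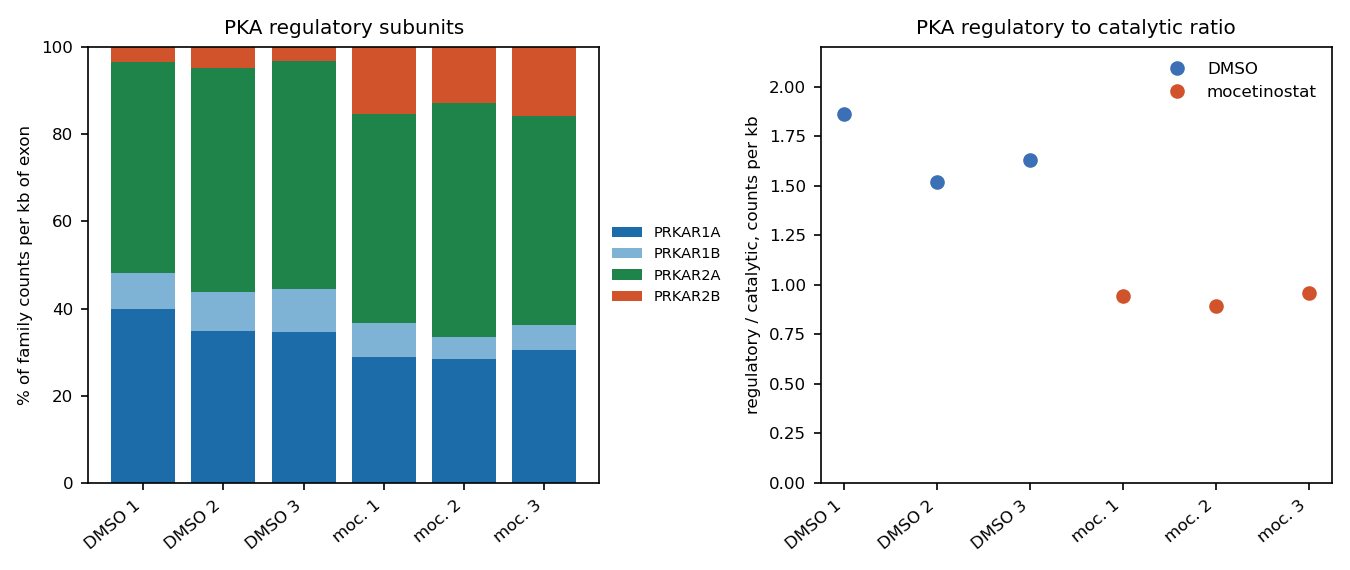
Left, share of each PKA regulatory subunit gene in the summed regulatory counts per kilobase of merged exon, in percent, for each of the 6 samples. Right, ratio of summed regulatory to summed catalytic counts per kilobase in each sample, between 1.52 and 1.86 with DMSO and between 0.894 and 0.960 with mocetinostat.

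*PKIA* encodes the alpha form of PKI, a small protein that blocks free catalytic subunits and carries them out of the nucleus, and lies at chr8:78516340-78605267. It had 9, 3 and 16 counts in the controls against 76, 31 and 37 after treatment, or 0.621 to 2.35 CPM against 14.9 to 19.0 CPM. The lowest treated sample was far above the highest control. The log2 fold change was 3.67 (SE 0.37), with an adjusted p of 8.04e-14 by edgeR, and it was 4.36 without DMSO replicate 3.

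Both EPAC genes were URGs at low counts, beside 20.2% of all genes tested. Both passed the filter only through the mocetinostat samples, where 90.1% of all such genes were called. *RAPGEF4* (EPAC2) had 8, 5 and 10 counts in the controls against 18, 4 and 14 after treatment, or 0.720 to 1.47 CPM against 2.45 to 5.74 CPM, a log2 fold change of 1.92 (SE 0.53) with an adjusted p of 0.00124 by edgeR. *RAPGEF3* (EPAC1) had 18, 12 and 6 counts against 20, 5 and 16, or 0.880 to 2.49 CPM against 3.07 to 6.56 CPM, a log2 fold change of 1.49 (SE 0.49) with an adjusted p of 0.0057 by edgeR. Neither gene overlapped between groups after scaling, although the raw counts did. The *RAPGEF3* call was lost without DMSO replicate 3 (log2 fold change 1.18, adjusted p = 0.0575), without mocetinostat replicate 3 (1.16, adjusted p = 0.0797), in DESeq2 (1.45, adjusted p = 0.0708) and with no filter (1.24, adjusted p = 0.062). Neither EPAC gene was called in glmTreat, which tests against the fold limit itself (adjusted p = 0.063 for *RAPGEF4* and 0.238 for *RAPGEF3*). Neither passed the filter after thinning or with 10 counts required in every sample. For *RAPGEF3*, a further limit is its gene model. *RPAP3-DT*, on the other strand, overlaps 15.2% of its exons.

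The CREB-family genes held no URG or DRG in edgeR with TMM scaling or in DESeq2, beside 28.4% of all genes called in either direction in edgeR. All 3 nonetheless had an unadjusted p under 0.05 in edgeR. *CREB5*, a leucine zipper factor that also works in cartilage, was read at 15.0, 16.8 and 16.7 CPM with DMSO and at 34.3, 27.0 and 29.5 CPM with mocetinostat, with no overlap. Its log2 fold change of 0.95 (SE 0.18) had an adjusted p of 4.52e-06 by edgeR and lay just under the fold limit. It was a URG under *GAPDH* scaling (1.49) and under the stricter filter of 10 counts in each of the 6 samples (1.03). *CREB1*, the founding cAMP-responsive factor, was read at 79.8, 78.3 and 74.6 CPM against 59.6, 60.1 and 64.3 CPM, a log2 fold change of -0.33 (SE 0.12) with an adjusted p of 0.0115 by edgeR. Its direction depended on the scaling, with 0.20 under *GAPDH* scaling, and its adjusted p was over 0.05 after thinning (0.171), with 10 counts in every sample (0.0524) and without mocetinostat replicate 1 (0.0547). *CREM*, which also encodes repressor forms of the factor, had a log2 fold change of 0.42 (SE 0.21) and did not pass the test (adjusted p = 0.074, edgeR).

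The 14 genes left untested were near the detection limit. Summed over 3 samples, *ADCY2* had 3 counts in the controls and 20 after treatment, *PDE6B* 2 and 11, *PDE11A* 9 and 22, *ADCY8* 8 and 17, and *PDE4B* 8 and 16. Corrected for depth, these were ratios of 16.5 (95% interval 4.91 to 87.0), 13.7 (2.98 to 127.0), 6.07 (2.69 to 15.0), 5.27 (2.16 to 14.1) and 4.96 (2.00 to 13.4), with exact conditional intervals that cover counting error only. *PDE8B* and *ADCY4* had no count in any DMSO sample and 10 and 6 counts with mocetinostat. Against a floor of 3 counts over the DMSO group, they were 8.27-fold and 4.96-fold higher. These 2 values leave out the counting error of the treated samples, so they are not lower limits. The counts of *PDE6B* overlapped between the groups, with 0, 2 and 0 in the DMSO samples and 8, 3 and 0 in the mocetinostat samples. In its gene model, 13.9% of the exons lie under *PDE6B-AS1* on the other strand. For *PDE8B*, 51.6% of the exons lie under another gene on the same strand, and for *PDE4C* 73.8%. For *ADCY10*, *PDE1A*, *PDE4C*, *PDE6A* and *PDE7B* the interval included 1, *PDE6C* had 3 counts in 1 treated sample, and the second *PDE11A* identifier had none.

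The promoters of the members were searched for the letters that CREB binds. Windows from 250 bases before to 50 bases after a transcription start were taken from RefSeq (GRCh38.p14), which gave 111 windows for 37 of the 44 symbols. The full cAMP response element, TGACGTCA, which reads the same on both strands, was found in 6 windows (5.41%) of *CREM*, *PDE4A*, *PDE7B* and *PRKAR1A*, and in 1.85% of all 35116 windows. By gene this was 4 of 37 and 2.25%, but members had more windows per gene, with 111 for 37 genes against 35116 for 27305. The elements of *CREM* and *PRKAR1A* were each counted again in an overlapping window. Its partial form, TGACG on either strand, which the full element contains, was found in 21.6% of member windows and in 24.6% of all windows. The GC box, GGGCGG on either strand, was found in 39.6% and in 45%. None of the 25 windows of member URGs held the full element, and the URGs *PDE3B*, *PDE9A* and *PKIA* had no window. With the element in 1.85% of all windows, its absence from 25 says little.

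The 4 windows below show members that differ in level and in motif: *CREM* (chr10:35195600-35195899, plus strand) and *PRKAR1A* (chr17:68512129-68512428, plus strand) with the full element, and *PRKAR2B* (chr7:107044455-107044754, plus strand) and *PDE2A* (chr11:72674373-72674672, minus strand), both URGs, without it. Each is printed 5′ to 3′, and capitals mark a cAMP response element, its partial form or a GC box. A match says only that the letters stand there.
CREM: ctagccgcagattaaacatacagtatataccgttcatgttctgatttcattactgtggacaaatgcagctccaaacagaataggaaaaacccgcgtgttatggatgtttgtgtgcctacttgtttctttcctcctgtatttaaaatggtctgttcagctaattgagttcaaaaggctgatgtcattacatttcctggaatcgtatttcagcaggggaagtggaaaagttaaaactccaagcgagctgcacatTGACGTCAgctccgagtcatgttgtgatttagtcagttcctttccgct
PRKAR1A: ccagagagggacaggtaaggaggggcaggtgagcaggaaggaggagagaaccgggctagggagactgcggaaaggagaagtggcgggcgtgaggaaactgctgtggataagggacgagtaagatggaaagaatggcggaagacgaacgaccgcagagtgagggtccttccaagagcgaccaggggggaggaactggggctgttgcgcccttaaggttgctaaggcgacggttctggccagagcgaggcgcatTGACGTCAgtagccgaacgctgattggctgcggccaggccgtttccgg
PRKAR2B: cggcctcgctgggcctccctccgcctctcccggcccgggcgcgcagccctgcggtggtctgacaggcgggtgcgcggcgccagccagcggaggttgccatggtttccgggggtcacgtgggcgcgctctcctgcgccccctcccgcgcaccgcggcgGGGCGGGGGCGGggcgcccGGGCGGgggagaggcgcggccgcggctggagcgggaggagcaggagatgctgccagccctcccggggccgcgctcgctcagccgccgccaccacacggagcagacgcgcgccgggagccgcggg
PDE2A: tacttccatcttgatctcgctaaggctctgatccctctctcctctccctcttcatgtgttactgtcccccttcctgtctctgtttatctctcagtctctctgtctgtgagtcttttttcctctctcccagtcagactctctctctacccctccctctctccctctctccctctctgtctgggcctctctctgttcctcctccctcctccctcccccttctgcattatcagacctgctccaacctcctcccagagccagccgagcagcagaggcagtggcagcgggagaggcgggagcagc
The element of *CREM* and that of *PRKAR1A* both stand just after the start site of the printed window. Each also falls before the start site of a second, overlapping window of its gene. The *PRKAR2B* window has 3 GC boxes and a GC content of 81.7%, whereas the *PDE2A* window has none, with a GC content of 57.0% and 4 CpG dinucleotides.

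The rest of the pathway was read from 11 lists of genes by role, of which 79 of 125 genes with a row were tested. There were 32 URGs and 3 DRGs, beside the 20.2% and 8.18% of all genes tested. Of these URGs, 16 passed the filter only through the mocetinostat samples, where 90.1% of all such genes were called, and 16 were among the 61 listed genes that reached the filter level in every DMSO sample, where 11.7% were URGs over the whole table. Upstream of the cyclases, 8 of 14 tested Gs-coupled receptors were URGs, of which 6 passed the filter only through the mocetinostat samples. *HRH2*, the histamine H2 receptor, was at 0.270 to 0.440 CPM with DMSO and 12.9 to 15.2 CPM with mocetinostat, a log2 fold change of 5.21 (SE 0.47). *PTGER4*, the prostaglandin receptor EP4, had a log2 fold change of 2.13 (SE 0.20). *ADORA2B*, the most counted of the receptors that were not called, had -0.48.

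Among the G protein alpha subunits, *GNAS*, which encodes Gs, was at 916 to 960 CPM with DMSO and 825 to 829 CPM with mocetinostat, a log2 fold change of -0.17 (SE 0.07) that was 0.35 under *GAPDH* scaling. Of the 7 Gs and Gi family genes tested, 3 were URGs, beside 20.2% of all genes and 11.7% of those that reached the filter level in every DMSO sample, as these 7 did. They were the inhibitory subunits *GNAI1*, *GNAZ* and *GNAO1*, with 2.04 (SE 0.14), 1.90 (SE 0.20) and 1.47 (SE 0.11). The more abundant inhibitory subunits *GNAI2* and *GNAI3* were not called, with 0.08 (SE 0.08) at 305 to 389 CPM and 0.0764 (SE 0.09) at 135 to 152 CPM over the 6 samples. On the cGMP side, 3 of 5 tested guanylyl cyclases were URGs, and all 3 passed the filter only through the mocetinostat samples. *GUCY1B1*, the beta subunit of the nitric oxide receptor, had a log2 fold change of 3.61 (SE 0.32), *NPR1* 1.98 (SE 0.60) and *GUCY1A2* 1.29 (SE 0.45). The call of *NPR1* was lost without DMSO replicate 1 (1.42), and its value was 2.82 without DMSO replicate 2, while the call of *GUCY1A2* was lost without DMSO replicate 1 (1.01) or mocetinostat replicate 1 (1.22). Neither gene was called in DESeq2 (adjusted p = 0.06 and 0.0899) or in glmTreat, which tests against the fold limit itself, and *GUCY1A2* was not called with no filter (adjusted p = 0.108). *NPR2*, the receptor of C-type natriuretic peptide, was lower below the fold limit (-0.78, SE 0.17), and was a DRG with no filter (-1.03). Of the cGMP-dependent kinases, *PRKG1* rose by 2.90 (SE 0.57) on the log2 scale and also passed the filter only through the mocetinostat samples. *PRKG2* did not pass with 1.10 (SE 0.67), or 2.05 and called without DMSO replicate 2.

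Downstream, 2 of 11 tested PKA anchoring genes were URGs, beside 20.2% of all genes and 11.7% of those that, as all 11 did, reached the filter level in every DMSO sample. They were *AKAP6* with a log2 fold change of 2.14 and *AKAP5* with 1.74, while *AKAP12*, by far the most counted with at least 932 CPM in each sample, had 0.43. Of RAP1 and its regulators, which all reached the filter level in every DMSO sample, 3 of 8 were URGs, beside 20.2% of all genes and 11.7% of those of that kind, namely the exchange factor *RAPGEF5* with 2.77 and the GTPase-activating *RAP1GAP* and *RAP1GAP2* with 2.04 and 1.19. The *RAP1GAP2* call was lost with no filter (0.94) and in glmTreat (adjusted p = 0.123). The 6 CREB partners tested held the 3 DRGs of the lists, beside 8.18% of all genes. *CREBBP*, the acetyltransferase CBP, was read at 328, 382 and 356 CPM with DMSO and at 131, 134 and 137 CPM with mocetinostat, a log2 fold change of -1.40 (SE 0.09). *ATF1* had -1.23 (SE 0.20) and was not called in glmTreat (adjusted p = 0.198). *EP300*, the acetyltransferase p300, had -1.003 (SE 0.10), at the limit itself. It was not called in glmTreat or under RLE size factors (-0.98), library size alone (-0.99), a replicate block (-0.99), thinning (-0.89) or 10 counts in every sample (-0.92). The call was also lost without DMSO replicate 2, mocetinostat replicate 1 or mocetinostat replicate 3 (-0.98 to -0.96). Under *GAPDH* scaling none of the 3 was called.

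Of 16 tested genes that are known targets of CREB, 10 were URGs, and 5 of these, *PPARGC1A* among them, passed the filter only through the mocetinostat samples, where 90.1% of all such genes were called. The other 5 were among 11 targets that reached the filter level in every DMSO sample, beside 11.7% of all genes of that kind. Of the latter 5, *FOSB* lay just over the fold limit, with 1.05 (SE 0.26). Its call was lost in DESeq2, in glmTreat, with no filter, and without DMSO replicate 1, DMSO replicate 2 or mocetinostat replicate 1. *VGF*, a neuropeptide precursor, was at 9.54 to 15.7 CPM with DMSO and 121 to 164 CPM with mocetinostat, a log2 fold change of 3.49 (SE 0.14). *PPARGC1A*, which encodes PGC-1α, had 10, 4 and 1 counts in the controls against 103, 42 and 53 after treatment, a log2 fold change of 5.05 (SE 0.37). *DUSP1*, a MAP kinase phosphatase, had 1.67 (SE 0.13), and *BHLHE40* did not pass with 0.11. Of the channels that cyclic nucleotides open or modulate, only 3 HCN genes were tested, and 2 were URGs, beside 20.2% of all genes. *HCN4*, with 2.40, passed the filter only through the mocetinostat samples, *HCN2* had 1.38, and *HCN3* was not called with 0.84, or 1.13 and called without DMSO replicate 2. The other PKA genes (3 tested) and the cyclic nucleotide exporters and Popeye genes (4 tested) held no URG or DRG, beside 28.4% of all genes called in either direction. These lists had 2 and 1 genes at an unadjusted p under 0.05 in edgeR. *PKIB*, a PKA inhibitor, lay just under the fold limit with 0.95 (SE 0.17), and was a URG under *GAPDH* scaling, with 10 counts in every sample and without mocetinostat replicate 1. *PKIG*, a PKA inhibitor gene more abundant than *PKIA* or *PKIB*, had -0.05 at 153 to 180 CPM over the 6 samples. *ABCC5* had -0.21, and both *PKIG* and *ABCC5* were positive under *GAPDH* scaling.

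**Figure D5:**
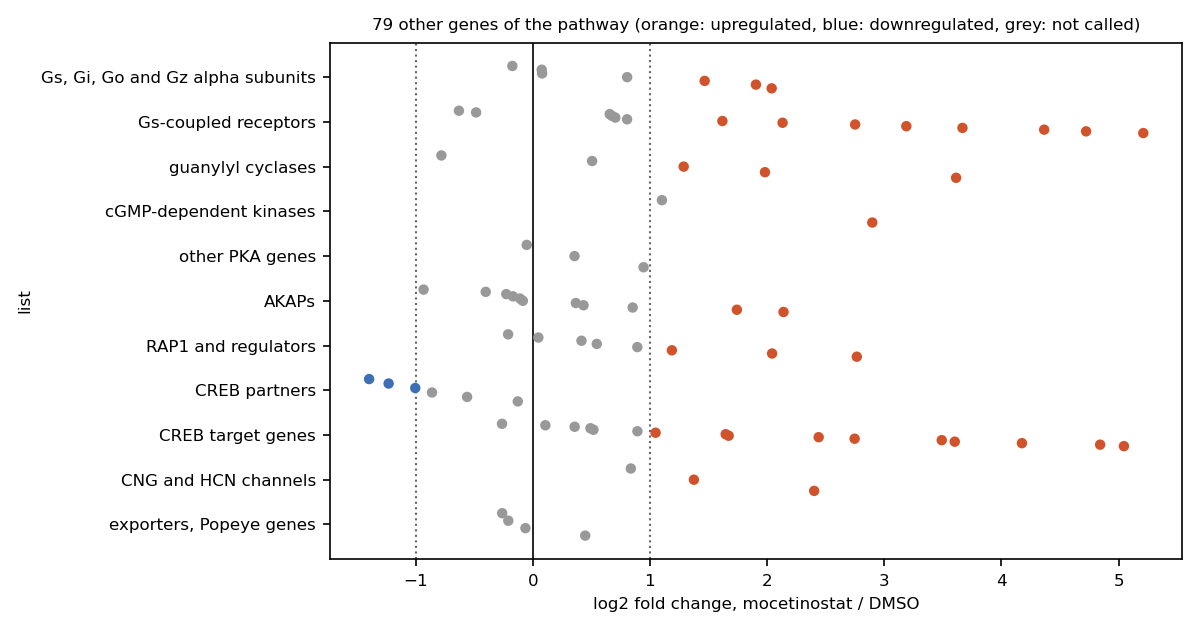
Log2 fold change (mocetinostat against DMSO, horizontal axis) of the 79 tested genes of the 11 other lists, 1 point per gene and 1 line per list, with dotted lines at 1 and -1. Orange points are the 32 URGs, blue points the 3 DRGs, all among the CREB partners, and grey points were not called.

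Markers of other cell types moved with the treatment. The summed level of 7 neuronal markers was 12.2 to 16.4 CPM with DMSO and 74.2 to 102.0 CPM with mocetinostat, and *STMN2* was at 0 in each DMSO sample. The 4 endothelial markers summed to 5.04 to 7.66 CPM with DMSO and 38.7 to 45.1 CPM with mocetinostat, and the 5 epithelial markers to 895 to 1080 and 1920 to 1970 CPM. With mocetinostat, *KDR* alone was at 22.5 to 27.3 CPM, while *CDH5* was not called (log2 fold change 0.12). Most of the epithelial sum was *KRT8* and *KRT18*. The 5 leukocyte markers summed to 1.47 to 2.49 and 5.3 to 11 CPM, with *CD3E* at 0 throughout. *CD14* made most of that rise, from 0.207 to 1.35 CPM with DMSO to 4.12 to 9.82 CPM with mocetinostat. *PTPRC* overlapped between groups, and *CD68* had counts only in DMSO samples. The 9 chondrocyte markers summed to 115 to 140 and 254 to 294 CPM, and the 7 fibroblast markers to 4740 to 5700 and 4300 to 4700 CPM. Most of the chondrocyte sum was *SOX9*, which was not called (log2 fold change 0.77). Most of the fibroblast sum was *COL1A1*, at 3750 to 4850 CPM over the 6 samples, and the list held 2 URGs (*PDGFRA* with a log2 fold change of 3.82 and *COL1A2* with 1.73) and 2 DRGs (*COL3A1* with -1.35 and *PDGFRB* with -1.01). The part of these shifts in the changes of the members was not tested.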

How the data were processed

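The deposited data are 1 table of raw read counts, 1 row per gene and 1 column per sample (6 in all), to which the authors applied no normalization. Per the submitters' processing notes and the study's methods, reads were aligned to GRCh38 with STAR 2.6.1d and counted with featureCounts 1.6.4. The strand setting is not given in the sources used here. From these counts, edgeR 4.0.16 (limma 3.58.1, R 4.3.3) kept 13966 of 60623 genes with filterByExpr at its minimum count of 10 and fitted the treatment alone over the 3 samples per condition. Benjamini-Hochberg adjustment of the quasi-likelihood p-values ran over all genes tested. URGs and DRGs had to pass both limits used in the study, 0.05 for the adjusted p and 1 for the size of the log2 fold change. CPM were scaled with TMM factors. In every sentence that gives an adjusted p without a tool, the p is that of edgeR.

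Exon lengths and overlaps came from GENCODE release 44, to which 99.5% of the identifiers matched, and promoter windows from RefSeq. The tests were checked on simulated data, with changes placed only in well-counted genes, so the check does not cover members at low counts. Pairs of replicates within a condition differed by more than sampling noise, with a chi-square per degree of freedom of 1.96 to 7.19. Alternatives were RLE, library-size and *GAPDH* scaling, DESeq2 1.42.0, glmTreat, 2 other filters, thinning to 1619344 counts, a replicate block, other exon lengths and leaving out each sample. Scaling the family sums to *GAPDH* was added after the data were seen. Python 3.11.15 with pandas 2.3.3, scipy 1.17.1 and matplotlib 3.10.9 made summaries and figures.

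The members and the lists were chosen with earlier results of these data known. Every member could be named. Of each list of other pathway genes, up to 3 called genes with the smallest p and the uncalled gene with the most counts were named. Of these, 1 gene is not reported here. *GNAI2*, *GNAI3*, *PKIB*, *FOSB*, the single fibroblast, endothelial and epithelial markers, *CD14*, *CD68* and *PTPRC* were named outside this rule, after their values were seen.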

Additional observations from a re-analysis of the deposited data

How the results depend on the processing

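The 12 member URGs were also called under RLE and library-size scaling and with a replicate block, which left 12 URGs and 0 DRGs among the members. The numbers in the labels gave no sign of pairing, with correlations of deviations between equal numbers of 0.0078, 0.0116 and -0.0162. Counting noise can lower such correlations, so whether the samples were paired was not settled. DESeq2 called 15 members as URGs, 11 of them shared, glmTreat 9 (without *PDE4D*, *RAPGEF3* and *RAPGEF4*), and thinning to the smallest library 9 of 28 tested, where *PDE3A*, *RAPGEF3* and *RAPGEF4* no longer passed the filter. Of 455 values of single members under alternatives, 426 kept their direction and their call as URG, DRG or neither. Some of these 426 nonetheless changed sides of the adjusted p limit alone. That limit was no longer passed in 7 settings for *PDE5A* and in 6 for *PDE10A*, neither of which was called in the main test. Leaving out 1 sample gave 11 to 14 member URGs and 0 to 1 DRGs.

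At least 10 counts in every sample left 6 member URGs (5 shared, with *CREB5* gained, 24 members tested), 18 URGs of the other pathway lists, and 1620 URGs and 704 DRGs over all genes. With no filter, all genes shifted by -0.25 on the log2 scale, and there were 2120 DRGs over all genes, 1 among the members (*PRKAR1B*) and 6 in the other lists. *GAPDH* scaling gave 4425 URGs and 284 DRGs over all genes and 0 DRGs in the other lists, with summed cyclases at 1.64 and summed PDEs at 2.42 times DMSO, and glmTreat gave 465 DRGs over all genes and 1 in the other lists. By their construction these alternatives change the genes tested, the centre or the null hypothesis.

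Directions turned as follows. Under *GAPDH* scaling the log2 fold change was 0.0205 for *ADCY3*, 0.30 for *ADCY6*, 0.20 for *CREB1*, 0.29 for *PDE1C*, 0.49 for *PRKACB*, 0.0946 for *PRKAR2A*, 0.35 for *GNAS*, 0.0527 for *ADORA2B*, 0.48 for *PKIG* and 0.33 for *ABCC5*. With no filter it was -0.0616 for *ADCY7*, -0.11 for *ADCY9*, -0.15 for *PDE4A*, -0.0014 for *PDE8A* and -0.14 for *BHLHE40*. With 10 counts in every sample it was 0.0324 for *PRKACB* and 0.0275 for *PKIG*, which had 0.0606 when thinned. Leaving out 1 sample gave -0.0687 to 0.1605 for *PDE4A* and -0.2388 to 0.0775 for *PRKACB*.

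Of the shares, the difference when 1 sample was left out ranged from -2.64 to 0.273 percentage points for *PRKAR2A* and from -0.421 to 0.837 for *ADCY7*. Thinning gave -0.00325 for *ADCY7*, 0.0372 for *ADCY9* and 9.27 for *PDE2A*. With the longest transcript as length, *PRKAR2B* gained 17.7 points, and the regulatory to catalytic ratio was 1.47 with DMSO and 0.884 with mocetinostat. The cause of these moves was not tested. The smallest library, of 1619344 counts, limits members under about 2 CPM.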
